A study of Mus musculus with 6 samples.

Results

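The heat shock genes of mouse pancreatic acini were examined as a readout of handling stress that does not depend on the immediate early genes. RNA was taken after 3 days of culture, with no fresh or heated acini beside it, so stress at isolation was not measured. The 10 genes were taken from the table of raw counts by their symbols, and all 10 were found among its 56953 genes. They are Hspa1a, Hspa1b, Hspa8, Hsp90aa1, Hsph1, Dnajb1, Hspb1, Bag3, Hspd1 and Hspe1. The set is named for cytosolic heat shock proteins, but Hspd1 and Hspe1 encode the chaperonin of the mitochondrial matrix.

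RNA came from primary acinar cells of the pancreas, the cells that make digestive enzymes, after 3 days ex vivo in an assay in which acini turn into duct-like structures. The 2 WT libraries were from wild-type mice labelled 10 and 11 weeks old. The 2 DD libraries were from mice with the DKK3 knockout labelled 12 and 13 weeks old, and the 2 DD + rDKK3 libraries were from knockout acini, labelled 14 and 15 weeks, that received recombinant DKK3, the secreted glycoprotein which the allele removes in every tissue. All 6 cultures were grown in Waymouth medium with serum, a trypsin inhibitor and 10 µg/ml dexamethasone, a glucocorticoid, so no group was without it. By the study's methods, acini were embedded in Matrigel and held on ice in a recovery solution before RNA isolation. The effect of that step on these genes was not measured. Labelled age and group cannot be told apart. The libraries of a group differ in labelled age, but no label names an animal or says that they came from separate animals. The p-values therefore measure the spread between these samples, which may be technical.

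Heat shock proteins are chaperones, which bind unfolded proteins and keep them from aggregating. When misfolded protein accumulates after heat, oxidants or mechanical injury, the transcription factor HSF1 binds heat shock elements (inverted repeats of GAA) and raises the inducible members within minutes to hours. Other members are made at a high level in unstressed cells, and secretory cells such as acini depend on chaperones throughout the cell for their large output of protein.

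Library totals ranged from 12018473 to 19750401 counts. All 13 defining markers of acinar cells were detected and tested, with a summed level of 99820 to 172900 CPM (counts scaled to library size after TMM normalisation). Enzymes such as Ctrb1 (40340 to 66740 CPM) carried the sum, while the amylase Amy2a5 had 3.55 to 13.7 CPM and the transcription factors Bhlha15 and Rbpjl 19.6 to 80.7 and 21.8 to 33.1 CPM. Several libraries stood apart. DD library 2 and DD + rDKK3 library 2 had fibroblast markers (8 of 8 tested) at a summed 724.8 and 813.6 CPM, against 37.4 to 145 CPM in the other libraries, and macrophage and leukocyte markers (6 of 6 tested) at 204 and 160 CPM, against 56.1 to 95.9 CPM. No marker of either list was at 0 in every library. Of the macrophage and leukocyte markers, Adgre1, Csf1r and Lyz2 were highest in these 2 libraries, and Lyz2 alone had 133 and 85.4 CPM there. Ptprc, Cd68 and C1qa did not set both of them apart. WT library 1 was set apart on the second principal component, which held 32.3% of the variance. Dkk3 itself was counted 10 times and 1 time in the WT libraries, 11 and 9 times in the DD libraries, and 5 times in each DD + rDKK3 library. These gene-level counts did not separate the genotypes, cannot show which exon was transcribed, and leave the groups resting on the labels. The study examined the allele by exon-specific PCR and reported loss of transcripts with the targeted exon in knockout acini. It attributed similar total Dkk3 levels in its RNA-seq to another isoform, Dkk3b. That PCR is not analysed here. In bulk RNA, fewer cells of a type and less RNA per cell cannot be told apart.

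The promoters are shown first, since heat shock elements are what the family's inducible members share. Windows of 300 bases, from 250 before to 50 after the start site of each canonical transcript, were read from the GRCm39 genome with GENCODE M39 start sites. They were searched for GAANNTTC and TTCNNGAA, the 2 arrangements of adjoining units. Each of these motifs is its own reverse complement, so a single pass covers both strands, and matches may overlap. Of the 10 windows, 7 held a match, against 14.44% of 21705 protein-coding promoters of the same length. These matches are not all separate, since Hspd1 and Hspe1 share a stretch and those of Hspa1a and Hspa1b have the same letters. The genes were also chosen as heat shock genes. The longer form, GAANNTTCNNGAA or TTCNNGAANNTTC, was held by 2 of the 10, against 0.47% of all, and both are the same element between Hspd1 and Hspe1, read from either strand. Below, the matched letters are in capitals and each line is the stretch around the first or longest match, 5′ to 3′ on the strand of its gene.
Hspe1, chr1:55127206-55127247, plus strand: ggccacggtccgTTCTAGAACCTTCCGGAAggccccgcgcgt
Hspd1, chr1:55127206-55127247, minus strand: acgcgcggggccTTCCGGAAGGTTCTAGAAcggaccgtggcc
Hspa1a, chr17:35191217-35191248, minus strand: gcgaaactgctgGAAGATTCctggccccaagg
Hspa1b, chr17:35178299-35178330, minus strand: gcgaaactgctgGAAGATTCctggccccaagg
Hspb1, chr5:135916644-135916675, plus strand: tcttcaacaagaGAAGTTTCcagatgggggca
Hsph1, chr5:149559815-149559846, minus strand: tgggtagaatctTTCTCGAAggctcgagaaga
Dnajb1, chr8:84334838-84334869, plus strand: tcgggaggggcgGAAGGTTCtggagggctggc

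The match began at position -104 from the start site in Hspa1a, Hspa1b and Hspb1, at -73 in Hspe1, -52 in Hspd1 and -28 in Hsph1, and at 28 in Dnajb1. The stretches printed for Hspa1a and Hspa1b have the same letters. Hspb1 had another match at -84 and Hsph1 another at 41. The windows of Hspa8, Hsp90aa1 and Bag3 did not hold these letters, which says nothing of elements elsewhere or of imperfect units. A match is a run of letters and was not tested as a binding site.

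Levels of the 10 genes were compared per kilobase of canonical transcript, as the mean over the 6 libraries. Hspa8, the constitutive HSP70 of the cytosol, was highest at 1129 CPM per kb, at rank 68 of 14683 genes with a length. Hspb1 followed at 202 CPM per kb, then Hspe1 at 156, Hsp90aa1 at 90.0, Hspd1 at 85.2, Bag3 at 15.2, Dnajb1 at 9.80 and Hsph1 at 8.02. The inducible HSP70 genes came last, Hspa1b with 1.74 CPM per kb at rank 10063 and Hspa1a with 0.658 CPM per kb at rank 12408. Ranges over the 6 libraries overlapped between the neighbours Hspb1 and Hspe1, Hsp90aa1 and Hspd1, and Dnajb1 and Hsph1, and not between the other neighbours. With all exons of a gene as the length, Hsp90aa1 (69.0 CPM per kb) passed Hspe1 (68.0), and the rest of the order was the same.

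**Figure D1:**
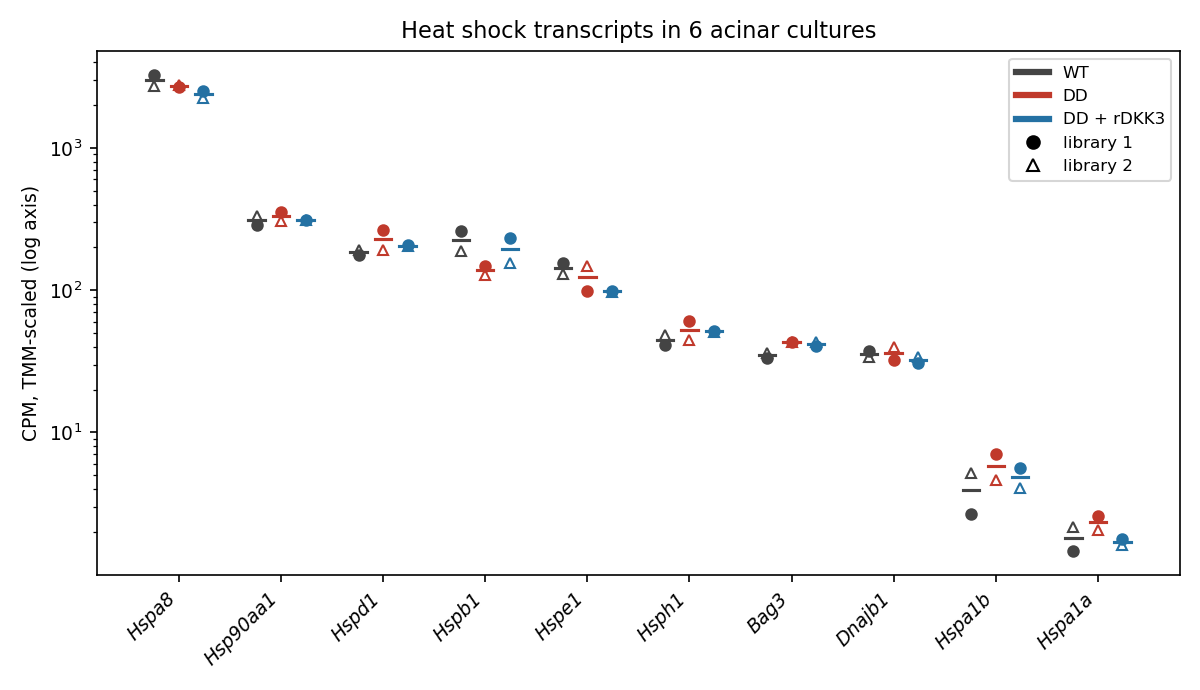
Depth-normalised level (CPM, log axis) of each heat shock gene in the 6 libraries, with WT in grey, DD in red and DD + rDKK3 in blue, circles for library 1, triangles for library 2 and a bar at the mean of the 2. Hspa8 lies at 2247 to 3277 CPM and Hspa1a at 1.47 to 2.60 CPM, and the distance between genes is far larger than that between groups.

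The 10 genes together took 0.329% to 0.395% of each library's counts, and Hspa8 alone made up 71.4% to 76.7% of these. The inducible pair was low in every culture. Hspa1a and Hspa1b lie 9951 bases apart on the minus strand of chromosome 17 (35188166 to 35191132 and 35175412 to 35178214 in GRCm39) and encode the HSP70 that rises most after heat. Of the 50-base windows of the Hspa1a transcript, 58.81% also occur in Hspa1b. A single 50-base read from such a stretch does not tell the genes apart, though the other read of its pair may. Their sum was therefore examined too. Read pairs left uncounted for that reason would be missing from the sum as well.

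Hspa1a (ENSMUSG00000091971.4) was counted 15 and 31 times in the 2 WT libraries, 55 and 35 times in DD, and 34 and 30 times in DD + rDKK3. These were 1.47 and 2.18 CPM in WT, 2.60 and 2.06 CPM in DD, and 1.80 and 1.61 CPM in DD + rDKK3. DD + rDKK3 was below DD in both libraries, and the other pairs of groups overlapped.

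Hspa1b (ENSMUSG00000090877.4) was counted 27 and 74 times in the 2 WT libraries, 148 and 79 times in DD, and 106 and 76 times in DD + rDKK3, or 2.65 and 5.20 CPM, 7.00 and 4.64 CPM, and 5.60 and 4.09 CPM. WT library 1 was the lowest and DD library 1 the highest, and all 3 pairs of groups overlapped. The sum of both genes averaged 5.75 ± 2.30 CPM over the WT libraries, 8.15 ± 2.05 CPM over the DD libraries and 6.55 ± 1.20 CPM over the DD + rDKK3 libraries (SD, n = 2 for each). Hspa8 stood 280 to 794 times above that sum in CPM, depending on the library, and 472 times above it per kilobase of canonical transcript. With all exons as the length the distance was smaller, with 311 CPM per kb for Hspa8 against 2.39 for the sum.

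Hspa8 (ENSMUSG00000015656.18, chromosome 9, 40712280 to 40721383) had 3277 and 2737 CPM in WT, 2685 and 2764 CPM in DD, and 2502 and 2247 CPM in DD + rDKK3. The cultures given rDKK3 were below both other groups, which overlapped each other. Hspa8 has 11 other genes that share over 1% of its 50-base windows, most of them processed pseudogenes, and those counted here held 0.268% to 0.360% as many counts as Hspa8.

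Among the partners of HSP70, the highest value was 1.29 times the lowest for Dnajb1 and Bag3, and 1.47 times for Hsph1. Dnajb1, a J-domain protein that delivers clients to HSP70 (ENSMUSG00000005483.11, chromosome 8, 84334822 to 84339282), had 37.3 and 33.7 CPM in WT, 32.2 and 39.9 CPM in DD, and 30.8 and 33.8 CPM in DD + rDKK3. Its highest value was 1.29 times its lowest, and all groups overlapped.

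Hsph1, the HSP110 that exchanges the nucleotide of HSP70 (ENSMUSG00000029657.16, chromosome 5, 149537752 to 149559841), had 41.2 and 48.1 CPM in WT, 60.6 and 44.7 CPM in DD, and 51.9 and 50.9 CPM in DD + rDKK3. The treated knockout libraries were above both WT libraries and lay between the DD libraries. Bag3, a co-chaperone that couples HSP70 and small heat shock proteins to autophagy (ENSMUSG00000030847.9, chromosome 7, 128125340 to 128148705), had 33.5 and 36.0 CPM in WT, 43.2 and 43.2 CPM in DD, and 40.7 and 43.0 CPM in DD + rDKK3. Both knockout groups lay above WT, and the treated libraries lay just below the untreated ones.

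Hsp90aa1, the inducible form of cytosolic HSP90 (ENSMUSG00000021270.14, chromosome 12, 110657039 to 110669162), had 288 and 334 CPM in WT, 353 and 309 CPM in DD, and 312 and 312 CPM in DD + rDKK3. All groups overlapped, and its range of 1.22 times was the smallest among the 10. The constitutive form, Hsp90ab1, had 3107 to 3482 CPM, so of HSP90 as of HSP70 the constitutive transcript was the more abundant (1219 against 90.0 CPM per kb).

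Hspb1, a small heat shock protein that holds unfolded clients without ATP (ENSMUSG00000004951.11, chromosome 5, 135916773 to 135918417), had 259 and 189 CPM in WT, 148 and 128 CPM in DD, and 231 and 155 CPM in DD + rDKK3. DD lay below both other groups without overlap, narrowly so against DD + rDKK3, and WT and DD + rDKK3 overlapped.

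Hspd1 and Hspe1 encode the mitochondrial chaperonin HSP60 and its lid HSP10. They are transcribed away from each other on chromosome 1, Hspd1 (ENSMUSG00000025980.15) from 55116994 to 55127402 on the minus strand and Hspe1 (ENSMUSG00000073676.5) from 55127291 to 55130466 on the plus strand, and overlap by 112 bases. Strand-specific counting keeps such reads apart. Hspd1 had 176 and 193 CPM in WT, 266 and 193 CPM in DD, and 208 and 204 CPM in DD + rDKK3. Hspe1 had 155 and 129 CPM in WT, 98.3 and 148 CPM in DD, and 99.4 and 96.4 CPM in DD + rDKK3. The DD libraries disagreed most, Hspd1 being highest where Hspe1 was low.

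**Figure D2:**
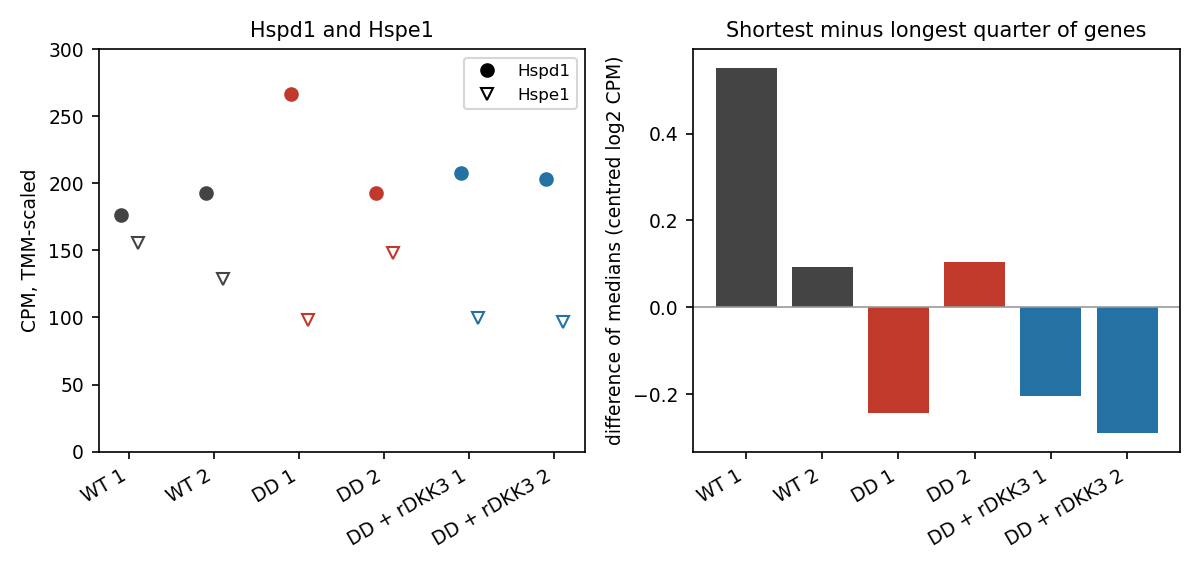
Left, CPM of Hspd1 (circles) and Hspe1 (triangles) in each library. Right, the median centred log2 CPM of genes with transcripts of up to 1816 bases minus that of genes with 4825 bases or more, as bars from 0. The count ratio of Hspd1 to Hspe1 ran from 1.13 in WT library 1 to 2.71 in DD library 1, and the bars from 0.55 in WT library 1 to -0.29 in DD + rDKK3 library 2.

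The count ratio of Hspd1 to Hspe1 was 1.13 and 1.49 for the WT libraries, 2.71 and 1.30 for DD, and 2.09 and 2.11 for DD + rDKK3. The transcript of Hspe1 is short (774 bases) and that of Hspd1 longer (2423 bases), so transcript length was examined, a check chosen after these values were seen. The genes with the shortest transcripts (up to 1816 bases, 3674 genes) were set against those with the longest (4825 bases or more, 3671 genes). The difference of their median centred log2 CPM was 0.55 and 0.092 for the WT libraries, -0.24 and 0.10 for DD, and -0.20 and -0.29 for DD + rDKK3. Short transcripts thus stood relatively highest in WT library 1 and lowest in DD + rDKK3 library 2, and the 3 libraries below 0 were the 3 with a ratio above 2. The part of length in the differences between groups was examined by an offset for length in the model and values with it are given in the comparisons.

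The first comparison, DD against WT, asks how the loss of DKK3 altered these genes. None of the 10 passed the test, edgeR's quasi-likelihood test with Benjamini-Hochberg adjustment over 14738 genes at an adjusted p under 0.05, by which 0.0407% of all genes tested were called. DESeq2 and limma-voom called none of them either. At an unadjusted p under 0.05 there was 1 of the 10, Hspb1, where 8.26% of all genes passed. The groups did not overlap for 3 of the 10 (Hspb1 lower, Bag3 and Hspd1 higher in DD), against 37.8% of all genes (19.7% lower and 18.1% higher). The log2 fold change was above 0 for 7 of the 10 and its median was 0.16, against 0.016 over all genes tested. Scaled by library size alone, 9 of the 10 were above 0 with a median of 0.36, against 0.22 over all genes. With the length offset, 6 of the 10 were above 0 with a median of 0.066. In the same comparison the acinar markers had a median log2 fold change of -0.65, with 10 of 13 below 0, 5 at an unadjusted p under 0.05 and 0 called by edgeR, and the part of that in the heat shock values was not tested.

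Hspb1 had a log2 fold change of -0.70 (SE 0.245, 95% interval -1.27 to -0.13, adjusted p = 0.586 by edgeR). It was -0.44 without WT library 1 and -0.47 with the length offset, with adjusted p of 0.952 and 0.634. For Bag3 it was 0.31 (SE 0.136, interval 0.997 to 1.55 as a fold, adjusted p = 0.586), and for Hspd1 0.32 (SE 0.194, adjusted p = 0.600), which was 0.088 without DD library 1 and 0.53 without DD library 2. Without the 2 libraries rich in fibroblast markers, the values were -0.60 for Hspb1, 0.31 for Bag3 and 0.53 for Hspd1. That leaves DD library 1 alone against WT, so it is not a check separate from leaving out DD library 2.

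The inducible pair gave 0.34 (SE 0.358) for Hspa1a and 0.56 (SE 0.381) for Hspa1b, and their summed counts gave 0.49 (SE 0.331, adjusted p = 0.611 by edgeR). Without WT library 2 the value of Hspa1b was 1.14, and without WT library 1 it was 0.18. The 95% interval for Hspa1b allowed a fold change from 0.795 to 2.71, and no change in either gene was detectable at this depth and spread. Genes with more counts had narrower intervals, such as 0.666 to 1.23 for Hspa8, 0.808 to 1.40 for Hsp90aa1 and 0.781 to 1.32 for Dnajb1. On the log2 scale those of Hspb1 (0.415 to 0.915), Hspe1 (0.609 to 1.23) and Hspd1 (0.91 to 1.7) were wider than these, although these genes have more counts than Dnajb1. Hsph1 had a log2 fold change of 0.24 (SE 0.183) and Hspe1 one of -0.21 (SE 0.219), and with the length offset these were 0.068 and -0.018. Without DD library 1 they were 0.024 and 0.083, and without DD library 2 they were 0.44 and -0.53.

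**Figure D3:**
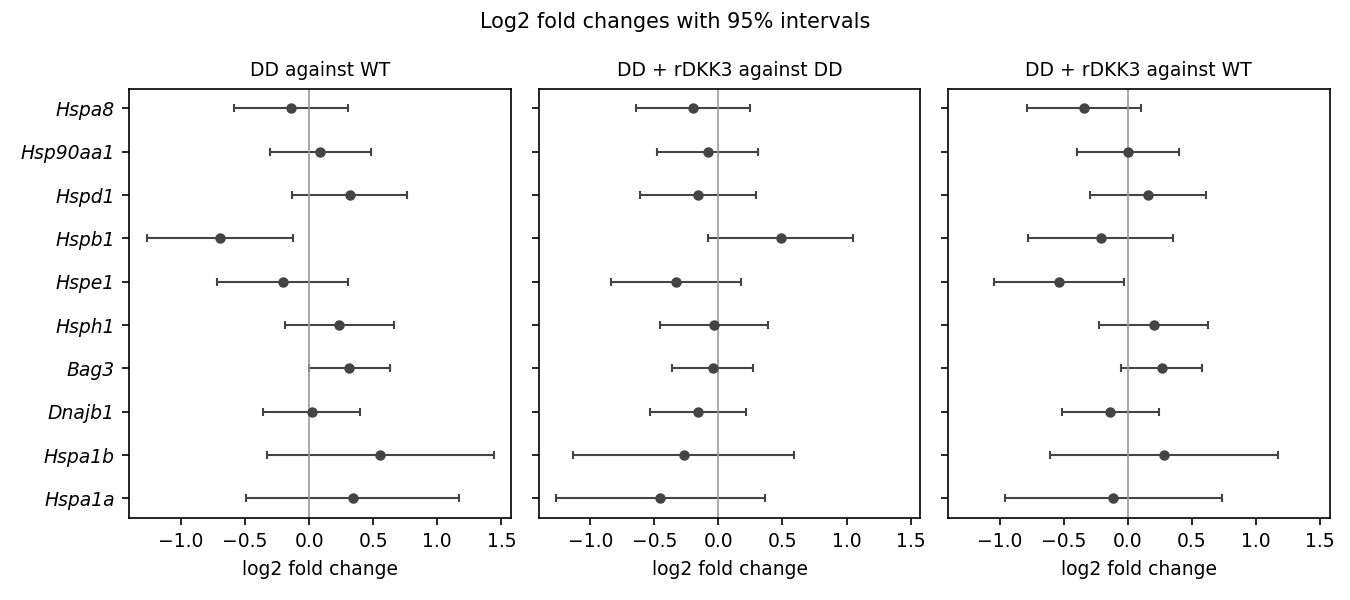
Log2 fold change of each heat shock gene (points) with its 95% interval (bars) in the 3 comparisons, from the edgeR fit over all 6 libraries. Of the 30 intervals, those of Hspb1 in DD against WT (-1.27 to -0.13) and Hspe1 in DD + rDKK3 against WT (-1.05 to -0.027) do not reach 0.

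The second comparison, DD + rDKK3 against DD, asks what the protein did when added back to knockout acini. None of the 10 genes passed the edgeR test at an adjusted p under 0.05, and 0.0% of all genes did. At an unadjusted p under 0.05 there were 0 of the 10 (1.98% of all genes), and DESeq2 and limma-voom also called 0. The groups did not overlap for 4 of the 10 (Hspb1 higher, Hspa1a, Hspa8 and Bag3 lower with rDKK3), against 29.5% of all genes (15.1% higher and 14.4% lower). The log2 fold change was below 0 for 9 of the 10, with a median of -0.16 against -0.0028 over all genes. Without DD library 1 it was below 0 for 6 of the 10 with a median of -0.038, and Hspa1b (0.039), Hsph1 (0.18) and Hspd1 (0.073) were above 0 beside Hspb1.

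Hspb1 was the exception, with a log2 fold change of 0.49 (SE 0.244, fold interval 0.945 to 2.08, adjusted p = 1.0 by edgeR). It was 0.16 without DD + rDKK3 library 1 and 0.74 without DD + rDKK3 library 2. Hspa1a had -0.45 (SE 0.350), Hspa1b -0.27 (SE 0.371), Hspe1 -0.33 (SE 0.219), and Hspa8 -0.20 (SE 0.191, fold interval 0.640 to 1.19). The value of Hspe1 was -0.62 without DD library 1 and -0.0054 without DD library 2. The remaining 5 genes lay between -0.16 and -0.035, and of these Hsph1 moved from -0.035 to -0.11 with the length offset. The comparison shares its DD libraries with the first and its DD + rDKK3 libraries with the third, so the opposite signs of a gene in the first 2 comparisons are not separate evidence.

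The third comparison, DD + rDKK3 against WT, asks how far treated knockout acini differed from wild type. None of the 10 passed the edgeR test at an adjusted p under 0.05, against 0.0475% of all genes, nor did any by DESeq2 or limma-voom. DESeq2 gave no adjusted p for Hspa1a and Hspa1b in this comparison, so it could not call them. At an unadjusted p under 0.05 there was 1, Hspe1, where 15.3% of all genes passed. The groups did not overlap for 5 of the 10 (Hsph1, Bag3 and Hspd1 higher, Hspa8 and Hspe1 lower), against 55.0% of all genes (27.9% higher and 27.1% lower). The log2 fold change was above 0 for 5 and below 0 for 5, with a median of -0.053 against 0.017 over all genes.

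Hspe1 had a log2 fold change of -0.54 (SE 0.219, fold interval 0.484 to 0.982, adjusted p = 0.321 by edgeR). It was -0.38 without WT library 1 and -0.26 with the length offset. Without the 2 libraries rich in fibroblast markers, which leaves DD + rDKK3 library 1 alone in its group, it was -0.51. Hspa8 had -0.34 (SE 0.191, adjusted p = 0.388), which became -0.19 without WT library 1. Bag3 had 0.27 (SE 0.136, adjusted p = 0.361) and Hspb1 -0.21 (SE 0.244), whose sign turned to 0.053 without WT library 1 and to 0.076 with the length offset. Hsph1 had 0.20 (SE 0.183), which turned to -0.041 with the length offset.

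Read by library rather than by group, the 10 genes did not rise or fall as a block. WT library 1 held the lowest CPM of 6 genes (Hspa1a, Hspa1b, Hsp90aa1, Hsph1, Bag3 and Hspd1) and the highest of 3 (Hspa8, Hspb1 and Hspe1). DD library 1 held the highest of 5. The mean centred log2 CPM of the 10 genes was -0.069 and 0.033 for the WT libraries, 0.13 and 0.0027 for DD, and 0.012 and -0.11 for DD + rDKK3. Genes that moved in opposite directions offset each other in this mean. The Pearson correlation of a gene with it was highest for the low-count Hspa1a (0.923) and was 0.105 for Hspa8. It was below 0 for Dnajb1 (-0.349), Hspb1 (-0.273) and Hspe1 (-0.212), and above 0 for the other genes.

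The immediate early genes, a list of transcripts that rise within minutes of stimulation or handling, gave another order. Their score over 20 genes tested (Fosb and Egr3 lay below the expression filter) was -0.39 and -0.22 for the WT libraries, -0.037 and 0.36 for DD, and -0.012 and 0.31 for DD + rDKK3. WT was lowest and the libraries with the most fibroblast marker RNA were highest, while the heat shock score was highest in DD library 1. The part of these other cells in either score was not tested.

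**Figure D4:**
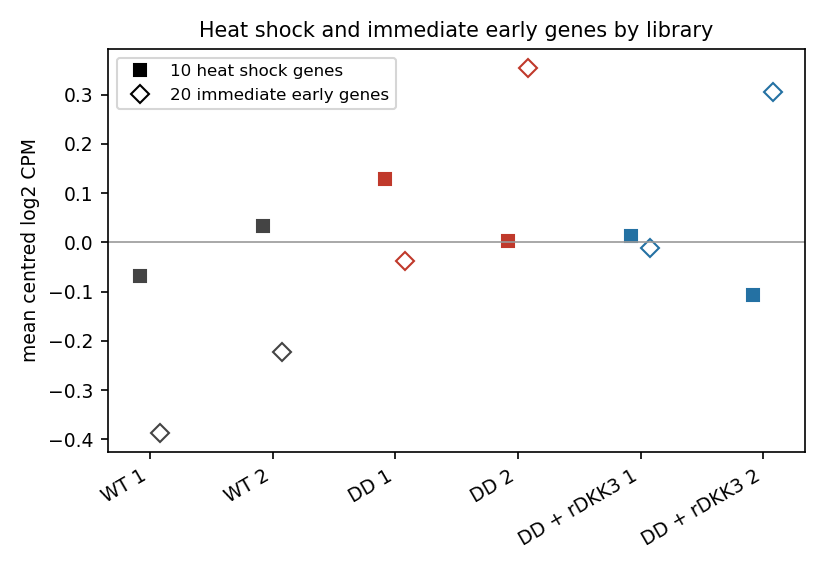
Mean centred log2 CPM of the 10 heat shock genes (filled squares) and of 20 immediate early genes (open diamonds) in each library, with a line at the mean of all libraries. The heat shock score, a mean of genes that moved in opposite directions, spans -0.11 to 0.13. The immediate early score spans -0.39 to 0.36, and the scores are highest in different libraries.

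In DD against WT, 0 of the 20 immediate early genes were called by edgeR (0.0407% of all genes), 7 had an unadjusted p under 0.05 (6 higher and 1 lower, where 8.26% of all genes passed) and their median log2 fold change was 0.18, against 0.16 for the heat shock genes. These medians were also near each other with library size alone, at 0.37 and 0.36, where the median of all genes was 0.22. With the length offset they lay apart, at 0.25 and 0.066. Fos, a subunit of the AP-1 transcription factor, had 8.06 and 37.7 CPM in WT, 78.8 and 118 CPM in DD, and 55.4 and 98.0 CPM in DD + rDKK3, a log2 fold change in DD against WT of 2.09 (SE 0.613, adjusted p = 0.586 by edgeR). Both knockout groups were above WT, and the knockout groups overlapped. Dusp1, a phosphatase of MAP kinases, had a log2 fold change of 0.78 (SE 0.235), and Atf3, a stress-induced repressor, -0.83 (SE 0.233). In DD + rDKK3 against DD, 1 of the 20 had an unadjusted p under 0.05 (Fosl1, -0.86, SE 0.277, where 1.98% of all genes passed). In DD + rDKK3 against WT, 6 did (15.3% of all genes), all higher, led by the transcription factor Egr1 (1.53, SE 0.403).

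The rest of the chaperone network was described by lists with 0 genes called by edgeR in any of the 3 comparisons. The other small heat shock proteins (4 genes) had the median farthest from 0 among these lists in DD against WT, -0.53, with 0 of 4 above 0, also with library size alone as the scaling. Hspb8, a partner of Bag3, had 219 and 178 CPM in WT, 127 and 146 CPM in DD, and 141 and 133 CPM in DD + rDKK3, a log2 fold change of -0.54 (SE 0.174, adjusted p = 0.586) in DD against WT. WT lay above both knockout groups, as for Hspb1 in DD.

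The cytosolic chaperonin TRiC, which folds actin and tubulin, had 0 of 8 subunits above 0 in each comparison, with medians of -0.22, -0.12 and -0.34 in the order above. With library size alone as the scaling, 4 of 8 were above 0 in DD against WT (median -0.0021), and 0 of 8 in the other comparisons. Cct6a (-0.48, SE 0.176) and Cct4 (-0.43, SE 0.180) had an unadjusted p under 0.05 in DD + rDKK3 against WT, where 15.3% of all genes passed. Other cytosolic members of HSP70, HSP110 and HSP90 (5 genes tested, Hspa1l below the filter) and other J-domain proteins (8 genes) had medians between -0.065 and 0.048, with no unadjusted p under 0.05.

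Among 16 co-chaperones of HSP70 and HSP90, medians were -0.018, -0.056 and -0.14. Unc45a, a myosin chaperone (0.39, SE 0.146), and Cacybp (-0.41, SE 0.171) had an unadjusted p under 0.05 in DD + rDKK3 against WT. In that comparison 15.3% of all genes passed. Of 7 other mitochondrial chaperones and proteases, Grpel1 also passed there (-0.51, SE 0.209). It encodes the nucleotide exchange factor of the matrix HSP70. The 12 chaperones of the endoplasmic reticulum had medians of -0.046, 0.038 and -0.068. Sdf2l1 had an unadjusted p under 0.05 in DD against WT (-0.50, SE 0.193), where 8.26% of all genes passed. Hsf1, which encodes the factor that drives the heat shock response, had 11.4 to 14.8 CPM. Of 4 genes of HSF and its regulators, Hsbp1, a binding partner of HSF1, had an unadjusted p under 0.05 (-0.45, SE 0.169). This was in DD + rDKK3 against WT, where 15.3% of all genes passed.

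The genes whose pattern over the 6 libraries was most like the mean of the 10 were Zfp746 (Pearson r 0.994), Stx4a (0.989), Gclc (0.988), Ptgs2 (0.984) and Igf2bp2 (0.983), the highest of 8908 genes with an average log2 CPM of at least 3. Gclc, the catalytic subunit of glutathione synthesis, had 501 and 1067 CPM in WT, 1736 and 762 CPM in DD, and 810 and 462 CPM in DD + rDKK3. Ptgs2, the inducible cyclooxygenase, had 11.5 and 15.9 CPM, 22.6 and 14.0 CPM, and 15.4 and 8.28 CPM. Both were highest in DD library 1 and lowest in DD + rDKK3 library 2, with groups that overlapped. With 6 points and so many candidates, high values of r are a description of these libraries, and Dnajb1, Hspb1 and Hspe1 themselves ran against the mean of the 10.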

How the data were processed

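RNA of 6 cultures was measured by bulk RNA-seq. The authors deposited raw counts per gene and library. Per their methods and processing notes, strand-specific paired reads were aligned with STAR 2.7.9a to GRCm39 (basic GENCODE M32). Exon alignments were then counted per gene. The libraries had been multiplexed in equimolar amounts for sequencing. A synthetic spike-in (92 of 57045 features, all at 0) was left out. From these counts, genes were kept by filterByExpr (minimum count 10, minimum total 15), leaving 14738, scaled by TMM and fitted by edgeR 4.0.16 (R 4.3.3) with a quasi-likelihood model over the 3 groups. Genes were called at a Benjamini-Hochberg adjusted p under 0.05, two-sided. CPM used TMM-scaled totals, log2 CPM a prior count of 2, and lengths GENCODE M39 transcripts. Intervals are from the model. DESeq2 1.42.0 and limma 3.58.1 (voom) were alternatives, among those given below. The procedure was tested on simulated counts.

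The 10 genes, lists and tests were chosen with earlier results of these data known. Named genes are the 10, the sum of Hspa1a and Hspa1b, up to 3 genes of each other list with the smallest unadjusted p under 0.05 in a comparison, and the 5 most alike in pattern. Hsp90ab1 and Hsf1 were named outside that rule, after their values were seen. Residual degrees of freedom were 3. Counting depth limits Hspa1a and Hspa1b most, with 15 to 148 counts, and intervals do not separate counting error from other spread.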

Additional observations from a re-analysis of the deposited data

How the results depend on the processing

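None of the 10 heat shock genes was called in any comparison under any alternative. For Hspa1a and Hspa1b in DD + rDKK3 against WT, DESeq2 gave no adjusted p and could not have called them. The lowest adjusted p was 0.0709, for Hspb1 in DD against WT by edgeR without the low-count filter, and its range over the alternatives reached 0.952. With 2 libraries a group, power is low for changes of the size seen, and the low counts of Hspa1a and Hspa1b widen their intervals further.

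Counts of all genes called were 6 in DD against WT, 0 in DD + rDKK3 against DD and 7 in DD + rDKK3 against WT, and are given below in that order. They were 80, 5 and 74 by DESeq2 and 528, 73 and 788 without the filter. By limma-voom the third was 3. Without library 2 of DD and of DD + rDKK3 the first was 14. Leaving out single libraries gave 2 to 6, 0 to 0 and 2 to 9. The median log2 fold change of the heat shock genes ranged from 0.085 to 0.28, from -0.18 to -0.038 and from -0.060 to 0.17 when single libraries were left out. With library size alone, which moved the median of all genes to 0.22 and 0.18, it was 0.36 in DD against WT and 0.099 in DD + rDKK3 against WT. With a transcript length offset (added after the data were seen) it was 0.066 in DD against WT, and without both number 2 knockout libraries 0.032 in DD + rDKK3 against WT. Beyond the shift by library size, the cause was not tested.

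Signs of uncalled values turned under some settings. In DD against WT these were Hspa8 (0.074) and Hspe1 (0.0061) with library size alone, and Dnajb1 with the length offset (-0.0030) and without both number 2 knockout libraries (-0.14). In DD + rDKK3 against DD it was Hspe1 (0.022) without those libraries. In DD + rDKK3 against WT, Hsp90aa1 turned by DESeq2 (-0.0033), with RLE size factors (-0.0031) and with the length offset (-0.024), Hspa1a (0.034) and Dnajb1 (0.036) with library size alone, Hsph1 (-0.041) and Hspb1 (0.076) with the length offset, and Hspb1 (0.052) without both number 2 knockout libraries. Leaving out single libraries gave, in DD against WT, -0.26 to 0.0089 for Hspa8, -0.14 to 0.19 for Dnajb1 and -0.53 to 0.083 for Hspe1. In DD + rDKK3 against DD it gave -0.53 to 0.039 for Hspa1b, -0.24 to 0.18 for Hsph1, -0.33 to 0.0059 for Dnajb1 and -0.37 to 0.073 for Hspd1. In DD + rDKK3 against WT it gave -0.33 to 0.22 for Hspa1a, -0.081 to 0.87 for Hspa1b, -0.079 to 0.12 for Hsp90aa1 and -0.53 to 0.053 for Hspb1.

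The replicate numbers were checked for pairing. Deviations of same-numbered libraries from their group means correlated at -0.39 for WT and DD, -0.25 for WT and DD + rDKK3 and 0.65 for DD and DD + rDKK3 over 14738 genes, and a name (DD1 or DD2) recurs in the titles of the untreated and treated knockout libraries of the same number. The labelled ages under a shared name differ, 12 and 14 weeks for DD1 and 13 and 15 weeks for DD2. No label says what that name stands for, so the numbers were not used to pair in the fit reported. With a replicate block, counts of all genes called were 7, 0 and 5, none of them a heat shock gene, and the median of the heat shock genes was 0.16, -0.15 and -0.055. With a block within the knockout libraries alone (added after the data were seen) the counts were 20, 0 and 15, Dnajb1 turned to -0.095 in DD against WT and Hspa1a to 0.0022 in DD + rDKK3 against WT.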

Other observations

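Among the 10 genes, pairs were compared over the 6 libraries by the Pearson correlation of log2 CPM, given as a description with no test, since the libraries share groups and depth. Hsph1 and Hspd1 ran together most closely (r 0.951), followed by Hsp90aa1 with Hspa1a (0.910) and with Hspa1b (0.887), and by Hspa1a with Hspa1b (0.861), whose reads overlap in sequence. Hspe1 ran with Dnajb1 (0.847) and Hspa8 (0.818). The lowest values were those of Hsph1 with Hspe1 (-0.872), Hspb1 with Bag3 (-0.789) and Hsph1 with Dnajb1 (-0.760). Hspd1 and Hspe1, which share the element printed above, had -0.716. Hsph1 has the longest transcript of the 10 (6178 bases) and Hspe1 the shortest (774 bases), and the part of transcript length in these values was not tested.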
